A study of Arabidopsis thaliana with 6 samples.

Results

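The loci described here are those numbered AT1G33000 to AT1G43999, the stretch of *Arabidopsis thaliana* chromosome 1 that runs from one arm through the pericentromere and the centromere into the other arm. Members were taken by locus number alone, in a region that was picked with earlier results of these data known. Of the 26764 genes with a value in the count table, 619 carried such a number. They lie between positions 11962746 and 16698219 of chromosome 1 in the TAIR10.1 reference, a stretch of 4.74 Mb on a chromosome of 30427671 bases. The reference annotates 924 loci in this number range, and the other 305 were not analysed here. A further 100 loci inside the stretch carry other numbers and were left out by the rule. Of the 619 loci, 269 were annotated as protein-coding, 343 as pseudogenes and 7 as non-coding RNA or tRNA genes.

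RNA-seq was carried out on 3-week-old seedlings of ecotype Col-0, with 3 wild-type (wt) libraries and 3 libraries of the triple mutant *3h1* (alleles h1.1-1h1.2-2h1.3-2), which carries T-DNA insertion alleles of all 3 linker histone H1 genes. Every library came from pooled seedlings grown on ½ MS agar in long days, and total RNA was depleted of ribosomal RNA. The *3h1* line is a single allele combination, and no line with H1 restored was among these samples. Per the paper, the *h1.3* allele came from the accession L*er*. Some L*er* sequence remained in the mutant line after backcrossing, mainly near *H1.3*. This background differs together with the genotype, and its part in the values was not tested. The comparison of *3h1* with wt asks how transcript levels of the loci differ when H1 is lost. In pooled seedlings, a change in the number of cells that use a gene and a change in RNA per cell cannot be told apart.

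Linker histone H1 binds nucleosomes where DNA enters and leaves and helps to pack chromatin. Pericentromeres are the flanks of the centromere, where plant chromosomes hold dense heterochromatin, many transposons and their remnants, and few active genes. Centromeres of *Arabidopsis* are built on a short satellite that is repeated head to tail. Annotated pseudogenes of such regions include many remnants of transposon genes, although the annotation used here does not mark which.

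The satellite unit is shown because it places the loci relative to the centromere. The stretch of chromosome 1 was searched for 30-base runs repeated at a fixed distance of 170 to 190 bases, a range set after a first search, and the distance of 178 bases gave the most, 755 runs. Over all distances from 100 to 300 bases the commonest was 159 bases, with 3321 runs and a median position of 14745303, so the satellite is not the only tandem repeat there. One unit of 178 bases, printed in lower case from the plus strand of chr1:15082593-15082770, reads as follows.
satellite unit: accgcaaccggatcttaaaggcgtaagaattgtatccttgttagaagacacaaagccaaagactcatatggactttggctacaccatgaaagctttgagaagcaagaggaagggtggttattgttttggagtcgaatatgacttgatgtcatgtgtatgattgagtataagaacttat
The median position of the 178-base runs was 15082642. Of the 619 loci, 419 lie before it and 200 after it. The reference holds 163758 undetermined bases within the stretch, so distances across the centromere itself are not known from it.

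The deposited values are expected counts, in which reads that map to several loci were divided between them, so a count can be fractional. The 619 loci held between 14538 counts (wt replicate 2) and 25482 counts (*3h1* replicate 3), out of 1846022 to 2877178 counts on nuclear genes. The labels were checked on the H1 genes. H1.1 (AT1G06760) had 68.3, 103 and 70.8 CPM (counts scaled to library size with TMM factors) in wt and 12.5, 19.4 and 17.9 in *3h1*. H1.2 (AT2G30620) had 69.0, 87.2 and 85.2 CPM in wt and 12.8, 14.2 and 13.2 in *3h1*. Both were lower in every *3h1* library, with adjusted p values of 0.00163 and 4.05e-05 in edgeR's quasi-likelihood test, while H1.3 was not analysed here. Of the leaf markers, RBCS1A, the small subunit of Rubisco, stood at 1194 to 1574 CPM and the carbonic anhydrase gene *CA1* at 436 to 599 CPM over the 6 libraries. The light-harvesting gene *CAB1* had 4724, 4403 and 3966 CPM in wt and 3010, 2543 and 3700 CPM in *3h1*, lower in every *3h1* library (log2 fold change -0.50, adjusted p = 0.416, edgeR).

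Markers that seedlings should lack differed between libraries. The flower genes *AP3* and *AG*, the pollen gene *VGD1* and the seed storage genes *CRA1* and *CRU3* summed to 2.32, 2.99 and 2.40 CPM in wt, and to 7.54, 1.70 and 9.07 CPM in *3h1* replicates 1, 2 and 3. *VGD1* and *AP3* were at 0 in wt replicate 3, *AG* in wt replicate 2 and *3h1* replicate 2, and *CRA1* in *3h1* replicate 2. Thus *3h1* replicates 1 and 3 stood above the other 4 libraries in all 5 of these genes. The root-hair markers *EXPA7* and *SHV2*, also low, did not follow this order. *EXPA7* had 0.493, 0.499 and 1.22 CPM in wt and 0.895, 0.187 and 0.897 CPM in *3h1*. *SHV2* had 0.821, 2.24 and 0.609 CPM in wt and 0.895, 0.564 and 1.496 CPM in *3h1*. The share of the 619 loci with a fractional count, which differed from a whole number by more than 0.001, was 29.6, 20.8 and 25.4% in wt and 44.6, 24.2 and 57.0% in *3h1* replicates 1, 2 and 3. For all other nuclear genes it was 25.5, 17.9 and 20.0% in wt and 35.7, 19.8 and 45.3% in *3h1*, so the same 2 libraries were high there. The part that these differences have in the results below was not tested.

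Taken as a whole, the loci carried a small and slightly larger share of the nuclear transcripts in *3h1*. They made up 0.817, 0.788 and 0.810% of nuclear counts in the wt libraries, in order of replicate, and 0.857, 0.896 and 0.913% in those of *3h1*. The groups did not overlap, and the means were 0.805 ± 0.015% and 0.888 ± 0.028% (SD, n = 3 each). The 95% Wilson interval, which covers counting error only, ran from 0.806 to 0.828% in wt replicate 1, the highest wt library, and from 0.847 to 0.868% in *3h1* replicate 1, the lowest *3h1* library. For groups of 3, the smallest p value open to a two-sided exact permutation test is 0.1. Shares also differed in the flanks of the region, loci AT1G22000 to AT1G32999 and AT1G44000 to AT1G54999. These held 6.45, 6.03 and 5.98% of nuclear counts in wt and 5.53, 5.44 and 5.98% in *3h1*, so that *3h1* replicates 1 and 2 lay below wt. *CAB1* (AT1G29930) is 1 of the flank loci. It had 28764, 17663 and 19544 of their 166314, 111329 and 129977 counts in wt. In *3h1* it had 20179, 13612 and 24734 of 159026, 123871 and 166904. The median log2 fold change of the 1179 flank loci tested was -0.010.

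The extra share came from different loci in different libraries. Protein-coding loci held 0.720, 0.695 and 0.728% of nuclear counts in wt and 0.720, 0.807 and 0.724% in *3h1*, so that only *3h1* replicate 2 lay above wt. Pseudogenes held 0.0933, 0.0870 and 0.0778% in wt and 0.132, 0.0845 and 0.182% in *3h1*, so that replicates 1 and 3 lay above wt and replicate 2 did not. A single gene, *NIA2* for nitrate reductase, held 0.0805, 0.0805 and 0.0900% in wt and 0.0877, 0.116 and 0.0948% in *3h1*. Without *NIA2*, a setting chosen after seeing the data, the share of all other loci still did not overlap between the groups, at 0.707 to 0.737% in wt and 0.769 to 0.818% in *3h1*. For loci with whole-number counts in every library, the groups overlapped, with 0.0834 to 0.0880% in wt and 0.0808 to 0.100% in *3h1*. This subset leaves out the 494 of the 619 loci with a fractional count in any library, *NIA2* among them. It holds a small part of the region's counts, so it is not a check of the share of the whole region.

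**Figure D1:**
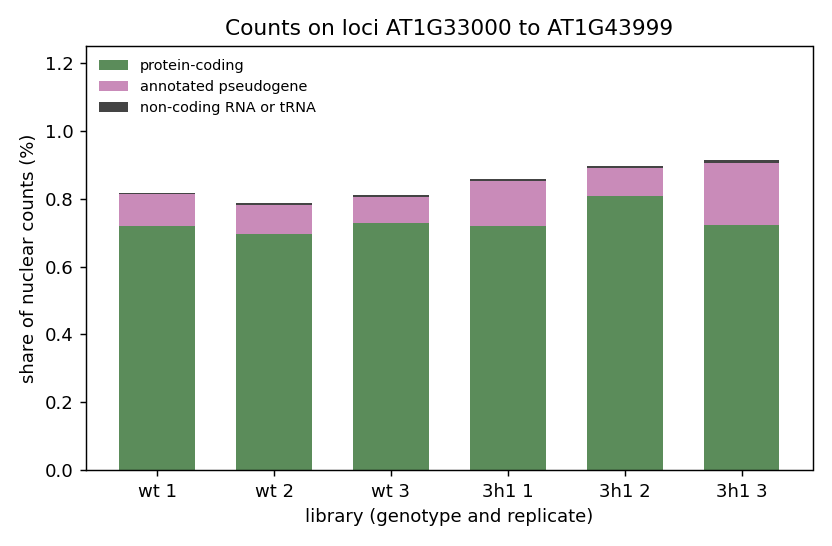
Share of nuclear counts, in percent, held by the protein-coding, pseudogene and non-coding loci of the region in each library, stacked from 0. The pseudogene part was largest in *3h1* replicates 1 and 3, at 0.132 and 0.182%, and the protein-coding part in *3h1* replicate 2, at 0.807%.

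The count filter kept 217 of the 619 loci for testing, 155 protein-coding, 58 pseudogene and 4 other loci. The 402 loci left out comprised 285 pseudogenes, 114 protein-coding loci and 3 others. Their median count, not scaled to library size, ranged from 1.08 to 2.12 in wt and from 2.00 to 6.02 in *3h1*. The filter asked for enough counts in as many libraries as a group holds, whatever their genotype. A pseudogene could pass only through the libraries where it was high, so values over the tested pseudogenes are given as a description. No locus was without reads in all libraries. In total 7 loci, 3 of them pseudogenes, had no count in any wt library, and none of these reached 10 counts in a *3h1* library.

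Of the 217 tested loci, 9 were called higher in *3h1* at the thresholds of the study, p below 0.05 before adjustment and more than a 2-fold change, which is 4.15% against 2.63% of all 17453 genes tested. At the same thresholds 2 loci (0.922%) were called lower, against 0.435% of all genes. After Benjamini-Hochberg adjustment over all genes, no locus passed 0.05 in edgeR's quasi-likelihood test, against 0.0401% of all genes. The lowest adjusted p value was 0.276, and 17 loci had an unadjusted p value under 0.05, while DESeq2 and limma voom also gave 0 loci at an adjusted p value under 0.05. Every *3h1* library lay above every wt library for 20 loci (9.22%), against 7.6% of all genes, and below for 9 loci, against 7.53% of all genes. The median log2 fold change was 0.041 over the 217 loci and 0.011 over all genes tested.

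Protein-coding loci and pseudogenes gave different descriptions. Of the 155 protein-coding loci tested, 2 were called higher and 2 lower (1.29% each), against 2.22% and 0.368% of the protein-coding genes tested in the rest of the nuclear genome. The median log2 fold change was -0.046, against 0.0051 for those genes. Of the 58 pseudogenes tested, 7 were called higher and none lower, 49 had a positive log2 fold change, and the median was 0.44. That median was 0.12 without *3h1* replicate 3, 0.83 without *3h1* replicate 2, 0.68 without wt replicate 1 and 0.43 to 0.60 without any other single library. For 507 pseudogenes tested elsewhere in the nuclear genome, 71 were called higher and 12 lower, and the median was 0.46. For 27 pseudogenes of the flanks, loci AT1G22000 to AT1G32999 and AT1G44000 to AT1G54999, 4 were called higher and the median was 0.50. The values of the pseudogenes inside and outside the region are set side by side without a test of their difference.

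The libraries show where the pseudogene values came from. The median level of the 343 pseudogenes, tested or not, was 0.224, 0.194 and 0.177 RPKM (CPM per kb of exon) in wt and 0.367, 0.180 and 0.557 RPKM in *3h1* replicates 1, 2 and 3. *3h1* replicates 1 and 3 were above all wt libraries, and replicate 2 was within them. Counted locus by locus, *3h1* replicate 1 exceeded every wt library for 184 of the 343 pseudogenes (53.6%), replicate 2 for 69 (20.1%) and replicate 3 for 258 (75.2%). For pseudogenes elsewhere in the nuclear genome the corresponding shares were 55.5, 19.8 and 73.6%, and their median levels were 0.276, 0.246 and 0.220 RPKM in wt and 0.474, 0.223 and 0.664 RPKM in *3h1*. For the 269 protein-coding loci of the region the shares were 33.8, 29.4 and 44.6%. The libraries with the high pseudogene values, *3h1* replicates 1 and 3, were those with the higher levels of flower, pollen and seed markers and the larger share of fractional counts. They also held the most counts, 6174881 and 6113730 in total, against at most 5924967 in any other library. Loci of the region without any read numbered 11 and 2 in them, and 48 to 109 in the others. A locus without reads cannot have a fractional count. The part of library depth in these differences was not tested. Without *3h1* replicate 2, 44 of the 266 loci then tested (16.5%) were called higher, 33 pseudogenes, 10 protein-coding loci and 1 other, against 6.66% of all 18747 genes then tested. With *3h1* replicate 2 as the only *3h1* library, which is then assumed to vary like the wt libraries, 4 of 226 loci were called higher and 6 lower (1.77 and 2.65%), against 0.878 and 1.39% of all genes, and the median log2 fold change of the tested pseudogenes was -0.22.

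**Figure D2:**
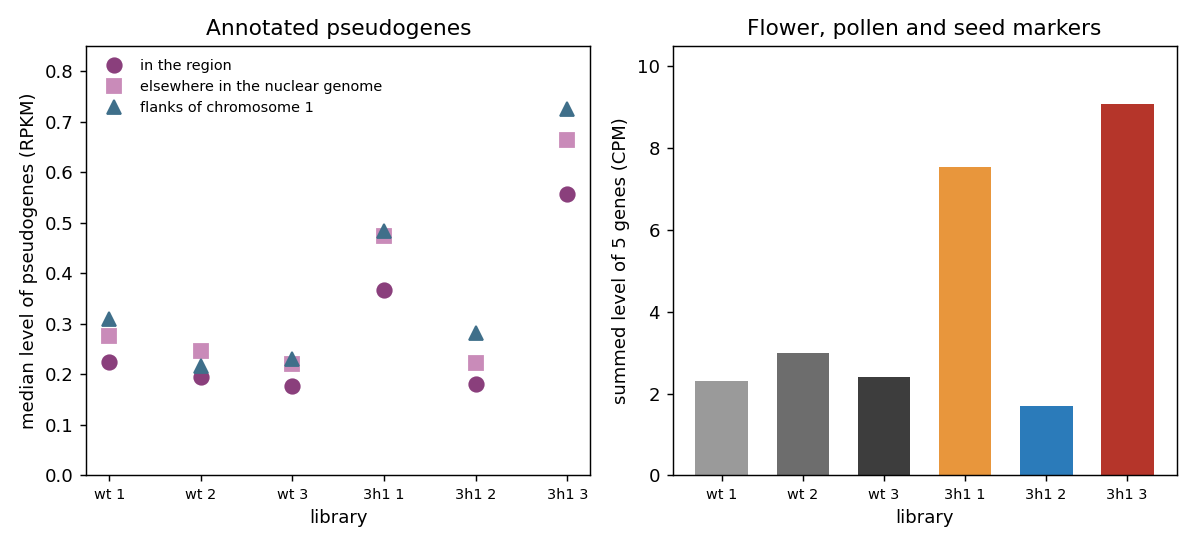
Left, median level in RPKM of annotated pseudogenes in each library, for the region, the rest of the nuclear genome and the flanks of chromosome 1. Right, summed CPM of 5 flower, pollen and seed markers. *3h1* replicates 1 and 3 are high in both panels (0.367 and 0.557 RPKM for the region, 7.54 and 9.07 CPM for the markers), while *3h1* replicate 2 is near wt.

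The makeup of the loci changed along the region. Pseudogenes made up 13.1% of the listed loci in the block AT1G33000 to AT1G33999, 45.3% in AT1G35, and 93.8 to 100% in AT1G38 and AT1G39, then 94.6% in AT1G40 and 44.6% in AT1G43. The median level of a locus in wt replicate 1 was 1.15 RPKM in AT1G33, where protein-coding loci prevail, 0.113 RPKM in AT1G39 and 0.533 RPKM in AT1G43. The difference between libraries was present all along. Summed pseudogene CPM relative to the mean of the wt libraries was 1.24 to 1.91 in *3h1* replicate 1 and 1.48 to 2.76 in *3h1* replicate 3, above 1 in 11 of 11 blocks in both. In *3h1* replicate 2 it was 0.757 to 1.14, above 1 in 3 of 11 blocks. The wt libraries ranged from 0.708 to 1.22. Among protein-coding loci, the median log2 fold change was between -0.099 and 0.076 in the 6 blocks with at least 9 tested genes.

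**Figure D3:**
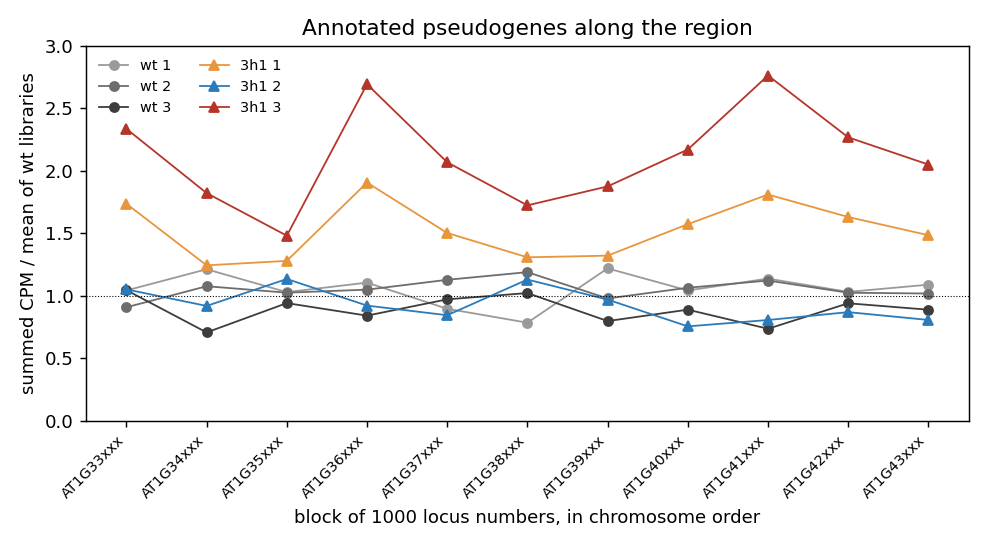
Summed CPM of annotated pseudogenes in each library, divided by the mean of the 3 wt libraries, for 11 blocks of 1000 locus numbers in order along the chromosome. *3h1* replicate 3 ran from 1.48 to 2.76 and *3h1* replicate 1 from 1.24 to 1.91, whereas *3h1* replicate 2 stayed between 0.757 and 1.14.

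The locus with the smallest p value was AT1G33460, annotated as a pseudogene on the minus strand from 12140012 to 12142760. It had 14.5, 12 and 13 counts in wt and 55.4, 21.6 and 56.2 counts in *3h1*, and every *3h1* library lay above every wt library. The mean was 2.67 ± 0.31 CPM for wt against 6.90 ± 2.49 CPM for *3h1* (SD, n = 3 each), and the log2 fold change was 1.37 (SE 0.34, adjusted p = 0.276, edgeR). Without *3h1* replicate 2, the adjusted p value of AT1G33460 was 0.0457 in edgeR, and over all alternatives it ranged up to 0.969. The locus has 3 near-identical copies elsewhere, where a copy is a match of at least 95% identity over at least 200 bases.

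*CYCB1;5* (AT1G34460), a B-type cyclin gene of the family that drives mitosis, lies on the plus strand from 12595110 to 12602379 and overlaps the locus AT1G06757. It had 12.7, 4 and 8.21 counts in wt and 22.3, 22.5 and 33 counts in *3h1*. All 3 *3h1* libraries, replicate 2 included, lay above wt. The mean was 1.58 ± 0.55 CPM for wt against 4.16 ± 0.81 CPM for *3h1* (SD, n = 3 each), and the log2 fold change was 1.34 (SE 0.39, adjusted p = 0.327, edgeR). Whether counting used the strand is not given in the sources used here, so reads of the overlapping locus cannot be told apart.

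The pseudogene AT1G43590 (plus strand, 16414121 to 16414627) had 13.3, 6.31 and 4.31 counts in wt and 41.8, 11.4 and 43.1 counts in *3h1*. *3h1* replicates 1 and 3 were high, and replicate 2 lay within the wt range in CPM (2.13, against 0.875 to 2.19). The log2 fold change was 1.71 (SE 0.50, adjusted p = 0.327, edgeR). Its count was fractional in all 6 libraries.

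These 3 loci kept both thresholds whichever single library was left out. With *3h1* replicate 2 as the only *3h1* library, *CYCB1;5* kept the call, with a log2 fold change of 1.39, whereas AT1G33460 (0.62) and AT1G43590 (0.45) lost it. The sequences around their starts are shown to let them be compared. Each window covers 250 bases before and 50 bases after the annotated start in TAIR10.1 and reads 5′ to 3′ on the strand of the gene. Capitals mark matches on either strand to TATAAA, the core of a TATA box (reverse complement TTTATA), or to AACGG, the core of an element found at mitotic genes (reverse complement CCGTT).
AT1G33460, chr1:12142711-12143010, minus strand: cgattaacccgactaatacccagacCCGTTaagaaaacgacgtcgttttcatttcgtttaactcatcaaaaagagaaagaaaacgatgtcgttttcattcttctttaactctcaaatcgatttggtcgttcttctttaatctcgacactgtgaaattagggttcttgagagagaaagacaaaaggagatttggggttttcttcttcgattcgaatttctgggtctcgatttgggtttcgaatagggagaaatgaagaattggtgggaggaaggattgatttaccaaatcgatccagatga
CYCB1;5, chr1:12594860-12595159, plus strand: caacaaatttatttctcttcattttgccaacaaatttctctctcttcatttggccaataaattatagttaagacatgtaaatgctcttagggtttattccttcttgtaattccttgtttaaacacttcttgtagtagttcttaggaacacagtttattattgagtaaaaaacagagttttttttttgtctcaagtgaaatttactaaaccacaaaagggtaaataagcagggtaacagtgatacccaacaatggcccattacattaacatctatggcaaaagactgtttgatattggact
AT1G43590, chr1:16413871-16414170, plus strand: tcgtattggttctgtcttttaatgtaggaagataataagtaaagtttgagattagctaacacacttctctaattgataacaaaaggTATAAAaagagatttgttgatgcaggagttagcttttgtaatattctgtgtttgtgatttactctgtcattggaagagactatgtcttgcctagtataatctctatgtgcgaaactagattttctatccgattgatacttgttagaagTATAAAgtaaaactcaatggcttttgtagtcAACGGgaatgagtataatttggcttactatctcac
AT1G33460 held 1 match to AACGG and none to TATAAA, *CYCB1;5* held neither, and AT1G43590 held 2 matches to TATAAA and 1 to AACGG. Among 26510 windows of this size at annotated genes, 49.6% held TATAAA and 25.3% held AACGG. Among the 619 loci of the region the shares were 39.1 and 23.1%. A match is a run of letters and not a bound site.

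The other 6 loci called higher lost the call in at least 1 of the fits with a library left out. The pseudogenes AT1G43060 and AT1G41896 had log2 fold changes of 1.42 (SE 0.46, adjusted p = 0.36, edgeR) and 1.31 (SE 0.43, adjusted p = 0.369, edgeR). Without *3h1* replicate 3 both lost the call, with log2 fold changes of 0.97 and 1.02. AT1G41896 had 10, 9 and 6 counts in wt and 29.4, 13 and 37.8 in *3h1*, with no overlap in CPM. The pseudogene AT1G43150 had 14, 2 and 2 counts in wt and 22.0, 5.81 and 62.9 in *3h1* (log2 fold change 2.00, SE 0.77, adjusted p = 0.442, edgeR). Its groups overlapped, and the call was lost without wt replicate 2, wt replicate 3 or *3h1* replicate 3, where the log2 fold change was 1.69, 1.59 and 0.96.

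*TCP23* (AT1G35560), for a TCP transcription factor, a family that controls growth of plant organs, is single-copy by the same criterion. It had 10, 3 and 9 counts in wt and 23, 16 and 16 in *3h1*, all whole numbers, and the groups did not overlap (log2 fold change 1.01, SE 0.43, adjusted p = 0.485, edgeR). The pseudogene AT1G38710 had 10, 6 and 4 counts in wt and 13.8, 12.03 and 26.6 in *3h1* (log2 fold change 1.07, SE 0.46, adjusted p = 0.5, edgeR). The pseudogene AT1G40078 had 19, 16.7 and 19.2 counts in wt and 104, 13 and 42.9 in *3h1* (log2 fold change 1.15, SE 0.52, adjusted p = 0.524, edgeR). For AT1G40078 most of the difference came from *3h1* replicate 1, and the log2 fold change without that library was 0.28. *TCP23* lost the call in 4 of the 6 fits with 1 library left out (without wt replicates 1 or 2 or *3h1* replicates 1 or 2), at log2 fold changes of 0.74 to 1.13. AT1G38710 lost it without any single wt library or *3h1* replicate 3, at 0.70 to 1.29, and AT1G40078 without any single wt library, at 1.02 to 1.23, or without *3h1* replicate 1.

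Of the 9 loci called higher, 5 had *3h1* replicate 2 above every wt library, and the same number did not overlap between the groups. The 9 were picked for being higher in *3h1*, so these counts are a description only. In total 8 of the 9 had fractional counts in at least 2 libraries, and 6 of the 9 have a near-identical copy elsewhere in the nuclear genome. Of the 9, 7 are pseudogenes. Over all 58 tested pseudogenes, the median was 4 libraries with a fractional count, and 44.8% have a copy.

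Both loci called lower were protein-coding and without a near-identical copy. *ERF055* (AT1G36060), for a transcription factor of the AP2/ERF family, lies on the minus strand from 13454496 to 13456336. It had 16, 10 and 20 counts in wt and 10, 3 and 9 in *3h1*, and in CPM every *3h1* library lay below every wt library (log2 fold change -1.39, SE 0.46, adjusted p = 0.372, edgeR). Without wt replicate 3 the log2 fold change was -1.16 and the call was lost. AT1G34060, for a pyridoxal phosphate-dependent transferase, had 7.33, 11 and 123 counts in wt and 9, 13 and 13 in *3h1*. Its log2 fold change of -2.34 (SE 0.89, adjusted p = 0.434, edgeR) rested on wt replicate 3 and was 0.0018 without it, and the call was also lost without *3h1* replicate 1 or 3.

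**Figure D4:**
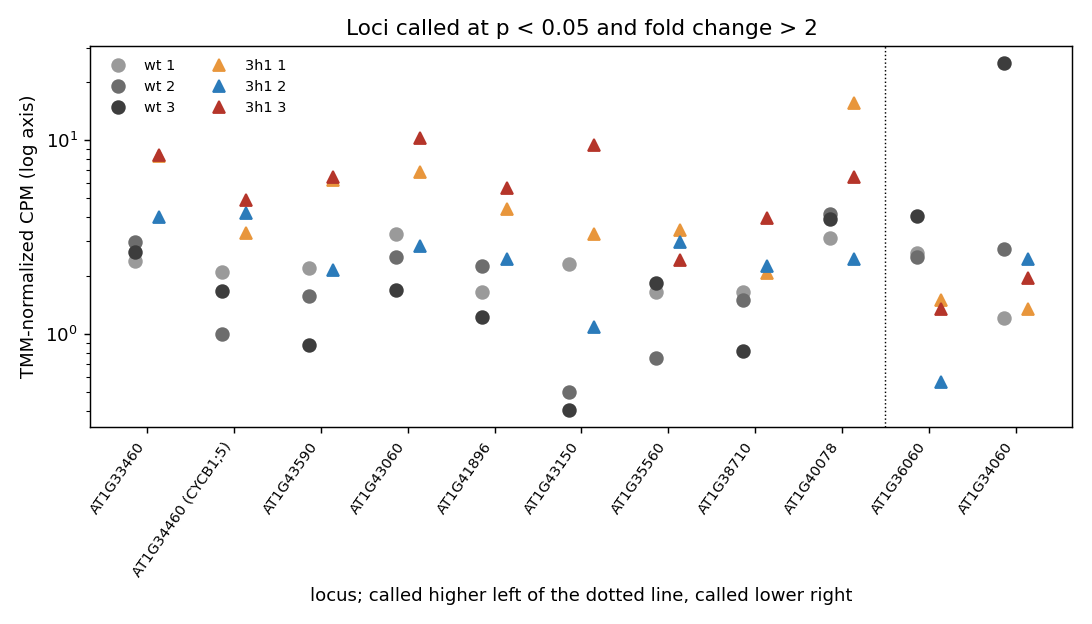
TMM-normalized CPM, on a log axis, of the 9 loci called higher and the 2 called lower in each library, with wt as circles and *3h1* as triangles. In AT1G43590, AT1G43060, AT1G43150 and AT1G40078 *3h1* replicate 2 sits within or below the wt circles, and in AT1G34060 wt replicate 3 sits alone at 24.96 CPM.

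The most strongly expressed loci of the region were housekeeping and metabolic genes, and none of them was called. *GAPB*, a subunit of the chloroplast glyceraldehyde-3-phosphate dehydrogenase of the Calvin cycle, had the highest level, 269 ± 19 RPKM in wt and 268 ± 42 RPKM in *3h1* (SD, n = 3 each). Its log2 fold change was -0.0065 (SE 0.16), and the sign turned with the normalization. *NIA2*, which reduces nitrate to nitrite, had 341, 370 and 397 CPM in wt and 376, 495 and 396 CPM in *3h1*, of which replicate 2 stood highest (log2 fold change 0.19, SE 0.16, adjusted p = 0.741, edgeR). *ANNAT1*, for the calcium-binding protein annexin 1, had 86.7, 73.5 and 79.7 CPM in wt and 114, 112 and 77.8 CPM in *3h1* (log2 fold change 0.34, SE 0.17, adjusted p = 0.574, edgeR). *ANNAT1* overlaps *PUM9* (AT1G35730), and its groups overlapped.

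The region also carries genes for ribosomal proteins, and 6 loci matched that description. All 6 were tested, and none was called higher or lower, against 2.63 and 0.435% of all genes. Their median log2 fold change was 0.0004, against 0.011 over all genes. The gene *RP1* (AT1G43170), for ribosomal protein L3 of the cytosolic large subunit, had 159, 182 and 178 CPM in wt and 135, 152 and 124 CPM in *3h1*. All *3h1* libraries lay below all wt libraries (log2 fold change -0.34, SE 0.14, adjusted p = 0.487, edgeR), a fold change under 2. *RPL21C*, for a ribosomal protein of the chloroplast, had 67.2, 65.8 and 60.5 CPM in wt and 57.6, 59.2 and 57.3 CPM in *3h1* (log2 fold change -0.15, SE 0.13, adjusted p = 0.75, edgeR).

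The ribosomal genes AT1G33120 and *PGY2* (AT1G33140), for a ribosomal protein of the L6 family, show how near-identical loci limit the values. Their coding sequences have 585 bases each, differ at 5 positions (99.1% identity) and share an unbroken run of 458 bases. The first 120 coding bases, printed in lower case from the plus strand of TAIR10.1, are the same in both.
AT1G33120, chr1:12010986-12011105: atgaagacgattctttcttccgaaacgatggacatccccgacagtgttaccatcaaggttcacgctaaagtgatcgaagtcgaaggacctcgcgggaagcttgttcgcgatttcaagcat
PGY2, chr1:12023360-12023479: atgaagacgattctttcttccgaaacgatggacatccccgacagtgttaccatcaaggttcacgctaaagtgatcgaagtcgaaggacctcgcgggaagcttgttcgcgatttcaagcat
A read from these bases cannot be assigned to either gene. The summed level of the pair was 120, 117 and 119 CPM in wt and 163, 136 and 112 CPM in *3h1*, so that replicates 1 and 2 stood above wt and replicate 3 below. *PGY2* received 52.0, 53.6 and 57.2% of the pair's counts in wt and 52.2, 49.2 and 50.3% in *3h1*. Taken singly, AT1G33120 had a log2 fold change of 0.32 (SE 0.15, adjusted p = 0.554, edgeR) and *PGY2* of 0.11 (SE 0.16, adjusted p = 0.867, edgeR). Both also overlap a further annotated locus each.

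Of 10 genes of chloroplast and carbon metabolism, 9 were tested and none was called higher or lower, against 2.63 and 0.435% of all genes. Their median log2 fold change was -0.086, with 2 positive and 7 negative values. Over all genes tested the median was 0.011, and 51.2% were positive. *RPL21C* is in this list and also among the ribosomal genes above. *OHP2*, a one-helix protein of the light-harvesting superfamily, had 25.1, 27.9 and 26.2 CPM in wt and 23.1, 21.3 and 21.7 CPM in *3h1*, without overlap (log2 fold change -0.26, SE 0.14, adjusted p = 0.598, edgeR). *CINV1*, a cytosolic invertase that splits sucrose, had 26.3, 29.2 and 29.6 CPM in wt and 24.5, 23.2 and 26.9 CPM in *3h1* (log2 fold change -0.19, SE 0.14, adjusted p = 0.719, edgeR). *ACC1* and *ACC2*, neighbouring genes for acetyl-CoA carboxylase, which makes the building block of fatty acids, are 90.3% identical with a longest shared run of 81 bases, and *ACC2* held 6.87 to 17.7% of their summed counts in wt and 9.68 to 19.1% in *3h1*. Both are named here after their values were seen.

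Of 12 loci described as receptors or leucine-rich repeat proteins, the sensors of signals and pathogens at the cell surface and inside the cell, 11 were tested. None was called higher or lower, against 2.63 and 0.435% of all genes. Their median log2 fold change was 0.14, against 0.011 over all genes. AT1G35710, a kinase with leucine-rich repeats, had 7.88, 7.05 and 8.03 CPM in wt and 11.04, 6.47 and 16.1 CPM in *3h1* (log2 fold change 0.56, SE 0.29, adjusted p = 0.589, edgeR), with *3h1* replicates 1 and 3 above wt and replicate 2 below. *RanBPM* (AT1G35470) matched the list only through the word receptor in the name of its SPRY domain. It had 6.90, 8.72 and 30.04 CPM in wt and 10.6, 7.10 and 6.61 CPM in *3h1*, so that wt replicate 3 stood apart, as it did for AT1G34060. Its log2 fold change was -0.90 (SE 0.47, adjusted p = 0.584, edgeR) with all libraries and 0.053 without wt replicate 3.

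Of 16 listed transcription factor genes other than auxin response factors, 14 had values and 10 were tested. *TCP23* was called higher and *ERF055* lower, 10% each against 2.63 and 0.435% of all genes, and the median log2 fold change was -0.12. Here 10% is 1 gene, in a list chosen with earlier results of these data known, so shares of this list are a description only. *NAC016* and *BZIP60*, named after their values were seen, also had every *3h1* library above every wt library, so that 3 of the 10 did (*TCP23* included), against 7.6% of all genes. The log2 fold changes of *NAC016* and *BZIP60* were 0.96 (adjusted p = 0.53, edgeR) and 0.46 (adjusted p = 0.546, edgeR). *BZIP60* encodes a factor of the unfolded protein response.

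Of 10 listed *IAN* genes, a tandem group of GTP-binding protein genes linked to immunity, 5 had values and 1 was tested. AT1G33970 had 23.8, 24.9 and 26.0 CPM in wt and 19.1, 27.5 and 14.0 CPM in *3h1*, with overlap (log2 fold change -0.31, SE 0.22, adjusted p = 0.693, edgeR). The other 4 held at most 17 counts in any library, the value of *AIG1* in *3h1* replicate 1. Of 3 listed Pumilio genes, which encode RNA-binding proteins, *PUM9* had values, at 1 to 9.08 counts, and was not tested.

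Auxin response factors bind promoters of auxin-regulated genes. The genes *ARF12* to *ARF15* and *ARF20* to *ARF22* form a group in the region, of close copies except for *ARF13*. None of these 7 passed the count filter. No library held more than 7.52 counts for any of them, and their sum was 11, 15 and 8 counts in wt and 15.2, 8 and 20.2 in *3h1*. At this depth no difference was detectable. The 21 pairs of coding sequences were 73.5 to 97.1% identical, with a median of 94.2%, and the longest run shared by a pair was 176 bases. Pairs with *ARF13* were 73.5 to 74.5% identical, and all other pairs at least 93.2%. Aligned windows of 120 coding bases are shown for 3 of them to make this visible, read 5′ to 3′ with the introns left out. The window is the stretch without gaps that varied least over the 7 genes, so it shows them at their most alike. Capitals mark bases that differ from the commonest base of the 7 genes at that place.
ARF15, coding bases 76 to 195, chr1:13085410-13085677, minus strand: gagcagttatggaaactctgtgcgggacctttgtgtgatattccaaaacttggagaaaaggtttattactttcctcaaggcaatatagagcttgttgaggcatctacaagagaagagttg
ARF20, coding bases 76 to 195, chr1:12930087-12930371, minus strand: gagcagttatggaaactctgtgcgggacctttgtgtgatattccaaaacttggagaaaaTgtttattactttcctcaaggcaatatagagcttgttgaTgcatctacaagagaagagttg
ARF13, coding bases 70 to 189, chr1:12446410-12446601, minus strand: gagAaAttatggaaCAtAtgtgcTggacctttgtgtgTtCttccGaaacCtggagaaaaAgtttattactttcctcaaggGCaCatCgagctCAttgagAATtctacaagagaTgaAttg
*ARF15* held the commonest base throughout, *ARF20* differed at 2 places and *ARF13* at 22. Over all 7 genes, 26 of the 120 places varied. *ARF20* had a count near 0 in wt replicate 1, 7.52 and 3 counts in wt replicates 2 and 3, and 3.43, 2 and 0.0182 counts in *3h1*, of which 2 values in *3h1* were fractional.

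Near-identical copies were common in the region as a whole. Of the 619 loci, 222 (35.9%) matched another part of the nuclear genome at 95% identity or more over at least 200 bases. This held for 54.5% of the 343 pseudogenes and 13% of the 269 protein-coding loci, and for 44.8 and 5.81% of those tested. Loci with a copy had a fractional count in a median of 3 of the 6 libraries, and loci without one in a median of 1. Among pseudogenes these medians were 3 with a copy and 2 without, and among protein-coding loci 2 and 1. Fractional counts were thus more frequent in pseudogenes also among loci without a copy, and the cause was not tested.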

How the data were processed

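RNA-seq of 3 wt and 3 *3h1* libraries was examined. The authors filtered out leftover rRNA and ERCC reads, aligned the rest to TAIR10 with TMAP, keeping all best mappings, and quantified ARAPORT11 genes in Partek, per the methods and the processing notes. The deposited values are expected counts per gene, in which expectation-maximization divided multi-mapping reads between loci. A second deposited table holds the authors' own fold changes and p-values and was not used. Samples were grouped by the genotype label. Expected counts were rounded to whole numbers, filtered with filterByExpr, normalized by TMM and tested over all 17453 genes that passed with edgeR 4.0.16 (glmQLFit, glmQLFTest, genotype only) in R 4.3.3, with Benjamini-Hochberg adjustment. limma 3.58.1 (voom) and DESeq2 1.42.0 were alternatives. Identities came from MAFFT 7.526, copies from blastn 2.17.0 and sequences, names, exon lengths and coordinates from RefSeq (TAIR10.1). The members and gene lists were chosen with earlier results of these data known.

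Genes were named by rule: any with an adjusted p value under 0.05, up to 12 called higher and 6 lower, the 6 with the highest RPKM, any with no count in wt and at least 10 in *3h1*, tested members of the *ARF*, *IAN* and Pumilio lists, the 2 with the smallest p value of each other list, and the H1 genes. With 3 libraries a group, the total count of a library was 4753812 to 6174881. Other filters, normalizations, tests, a replicate block and left-out libraries were tried.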

Additional observations from a re-analysis of the deposited data

How the results depend on the processing

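Counts of called loci depended on the count filter and on single libraries. Against 9 of 217 loci called higher, there were 40 of 618 with no filter on low counts (6.47%, all genes 4.33%), 2 of 146 with at least 10 counts in every library (1.37%, all genes 0.922%), 5 with limma voom (2.3%, all genes 2.01%) and 8 with DESeq2 (3.69%, all genes 2.15%). Among loci with whole-number counts in every library there was 1. That setting left out the 494 of the 619 loci with a fractional count in any library. Its share over all genes was not computed, so the fall to 1 cannot be judged. Leaving out 1 library at a time gave 6 to 44 (2.74 to 16.5%, all genes 1.55 to 6.66%), the highest without *3h1* replicate 2. The setting with *3h1* replicate 2 alone against wt was chosen after seeing the data. Against 2 called lower, there were 4 with no filter (0.647%, all genes 0.561%) and 0 with at least 10 counts in every library (all genes 0.332%). There was 1 with voom (0.461%, all genes 0.327%) and 1 with DESeq2 (0.461%, all genes 0.372%). With a library left out there were 1 to 4 (0.372 to 1.63%, all genes 0.51 to 0.709%), 1 without wt replicate 3 or *3h1* replicate 3 and 4 without wt replicate 1. An adjusted p value under 0.05 was reached by 0 to 1 loci with a library left out. The median log2 fold change, 0.041, was 0.47 with no filter, -0.062 with *3h1* replicate 2 alone, and -0.028 (without *3h1* replicate 3) to 0.133 with a library left out. The difference in the share of nuclear counts between *3h1* and wt, 0.0836 percentage points, was 0.0357 for protein-coding loci, 0.0198 for those without *NIA2*, 0.0467 for pseudogenes and 0.0029 for whole-number loci, where the values for pseudogenes and without *NIA2* were chosen after seeing the data. The sign turned for AT1G43150 (-0.017), AT1G40078 (-0.60), AT1G33970 (0.15), AT1G35710 (-0.23) and *GAPB* (0.23) with *3h1* replicate 2 alone, for *GAPB* also with upper quartile scaling (0.022) and at least 10 counts in every library (0.030). With a library left out, *GAPB* ranged from -0.17 to 0.080, *PGY2* (AT1G33140) from -0.063 to 0.24, AT1G34060 from -2.91 to 0.0018 and *RanBPM* (AT1G35470) from -1.28 to 0.053. The cause was not tested. Over the 25 named genes, 335 of 391 alternative fits kept direction and side of the threshold, 40 lost the call, 2 gained one and 14 changed sign. These fits pool the called loci with genes not called in the main fit, which cannot lose a call. They also include H1.1 and H1.2, which kept the call in 16 of 16 fits each. All 40 lost calls were therefore those of called loci of the region, and the pooled count does not show how stable these calls were.

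Replicate numbers are shared between the genotypes, but same-numbered libraries did not deviate together (correlations of -0.050, -0.14 and -0.11 across genes). With the number as a block, 8 loci were called higher (3.69%, all genes 2.26%) and 2 lower (0.922%, all genes 0.338%). Of the 9 loci called higher without it, 6 were among these 8, and *TCP23*, AT1G38710 and AT1G40078 (log2 fold changes of 1.04, 1.03 and 0.95) were not. Most loci held few counts, so small changes could not be detected at this depth.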
